A study of Mus musculus with 48 samples.

Results

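The genes described here make citrulline and arginine, or use arginine, in the small intestine of the growing mouse. They were chosen by symbol: Ass1, Asl, Cps1, Nags, Otc, Oat, Aldh18a1, Arg1, Arg2 and Odc1, which are 10 of the 54532 genes in the deposited count table. All 10 passed the filter on low counts, which kept 21986 genes for testing. The samples were 2 cm pieces of whole-thickness intestine from C57Bl/6J mice. One piece was duodenum from just past the pylorus, and the other was ileum from just before the ileocecal junction. The ages were day 0, 2, 4, 6 and 8, counted from birth, and weeks 2, 3 and 4. Each region and age had 3 samples, whose total RNA was sequenced.

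The labels name no engineered allele and no agent for any group, and both sexes were used. A litter usually gave 2 or 3 of the ages, per the labels, which do not say which samples were littermates. The housing is labelled germ-free, but the same text speaks of microbial exposures, so whether the mice lacked microbes is not settled. Pups were kept with their mother to day 21 and were fed chow from then on, so week 3 falls at weaning. Whether the week 3 mice had already eaten chow is not stated. Nor is it stated whether a duodenum and an ileum sample with the same number came from one mouse. Each p-value below measures the spread between these samples.

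The newborn gut is a main source of arginine for the whole body in the suckling period. In enterocytes, Aldh18a1 and Oat turn glutamate into ornithine, Cps1 makes carbamoyl phosphate when Nags supplies its activator, and Otc joins the pair into citrulline. Ass1 and Asl then turn citrulline into arginine. The arginases Arg1, of the cytosol, and Arg2, of mitochondria, split arginine into urea and ornithine, and Odc1 uses ornithine to begin the synthesis of polyamines. In adults the gut is known for releasing citrulline, which the kidney turns into arginine.

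Total counts of the samples used ran from 16824021 to 65042327. The samples numbered 3 at day 6 of both regions were left out, because Pdx1, a duodenal transcription factor gene, and Fabp6, an ileal bile acid binding protein gene, were at levels opposite to their labels. Pdx1 was at 0.115 CPM in the one labelled duodenum and 14.5 CPM in the one labelled ileum. That leaves 46 samples, with 2 per region at day 6. Among these, the regions overlapped in Pdx1 at day 0 (2.41 to 25 CPM in duodenum samples, 0.111 to 6.51 CPM in ileal ones) but not in Fabp6 (1.55 to 4.74 CPM against 21.9 to 39.9 CPM). At week 4 they also overlapped in Pdx1 (1.81 to 20.7 CPM against 0.776 to 2.87 CPM) but not in Fabp6 (0.104 to 0.672 CPM against 41.7 to 1936 CPM). CPM is the estimated count of a gene per 1000000 counts of its library, whose size is adjusted by TMM, the trimmed mean of M values. A gene is called when edgeR's quasi-likelihood test gives a Benjamini-Hochberg adjusted p under 0.05 over all genes tested. In pieces of whole tissue, fewer cells of a type and less RNA per cell cannot be told apart.

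Promoter sequences were at hand for 6 of the 10 genes, from RefSeq on GRCm38.p6. They are shown for genes that moved in opposite directions at weaning, Ass1, Aldh18a1 and Oat, which fell, and Otc, which rose. Each line reads 5′ to 3′ on the gene's strand and ends at the base before the RefSeq start, except for Ass1, whose line is 30 bases around a CACGTG element that lies inside the gene as GENCODE M21 annotates it. Capitals mark matches on either strand to CACGTG (the E-box), GGGCGG (the GC box), CCAAT or GATAAG. The Ass1 line is chr2:31470222-31470251 on the plus strand, Aldh18a1 is chr19:40588464-40588663 on the minus strand, Oat is chr7:132576399-132576598 on the minus strand, and Otc is chrX:10252105-10252304 on the plus strand.
Ass1: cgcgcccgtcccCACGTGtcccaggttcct
Aldh18a1: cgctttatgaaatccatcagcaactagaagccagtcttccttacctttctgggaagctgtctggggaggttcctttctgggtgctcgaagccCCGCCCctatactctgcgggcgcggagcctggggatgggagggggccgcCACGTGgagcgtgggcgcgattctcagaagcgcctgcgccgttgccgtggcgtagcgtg
Oat: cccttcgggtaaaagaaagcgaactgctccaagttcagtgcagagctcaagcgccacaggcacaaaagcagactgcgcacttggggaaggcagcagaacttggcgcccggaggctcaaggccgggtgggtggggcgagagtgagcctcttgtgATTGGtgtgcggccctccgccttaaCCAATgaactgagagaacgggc
Otc: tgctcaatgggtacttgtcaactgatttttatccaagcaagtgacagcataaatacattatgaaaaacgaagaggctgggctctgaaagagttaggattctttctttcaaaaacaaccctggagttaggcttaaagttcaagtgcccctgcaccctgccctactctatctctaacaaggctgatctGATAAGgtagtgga

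CACGTG occurred in the 300-base windows of Ass1 and Aldh18a1, and in 7.15% of all 32851 RefSeq windows of that length. GGGCGG occurred in 5 of the 6 windows, all but that of Otc, and in 35.7% of all windows. The Oat window held CCAAT on both strands, as 37.4% of windows did on at least one, and of Oat's GGGCGG matches the first runs over the end of the printed stretch and the second lies past it, so neither is in capitals. GATAAG was found only in the Otc window among the 6, and in 7.44% of all windows. AGGTCA, found in 16.3% of all windows, was in that of Nags, while TATAAA (13.6%) and TTGCNNAA (10.8%) were in none of the 6. These matches describe letters and show no binding.

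Over the 8 ages, 9 of the 10 genes changed in the duodenum and 9 in the ileum, where 67.4% and 58.7% of all genes tested were called. Arg1 was the gene not called in either region, with edgeR adjusted p of 0.133 and 0.102. Between day 0 and week 4, 5 members fell and 3 rose in the duodenum, against 20.1% of all genes that fell and 20.4% that rose. In the ileum 6 fell and 2 rose, against 20.4% and 21.5%. The members that fell in both regions were Ass1, Asl, Cps1, Oat and Aldh18a1, and those that rose in both were Arg2 and Otc. Of the 4 successive steps tested (day 0 to day 8, to week 2, to week 3, to week 4), the one from week 2 to week 3 was the largest in both regions for Ass1, Oat, Aldh18a1 and Arg2, as the plot of CPM by age shows.

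**Figure D1:**
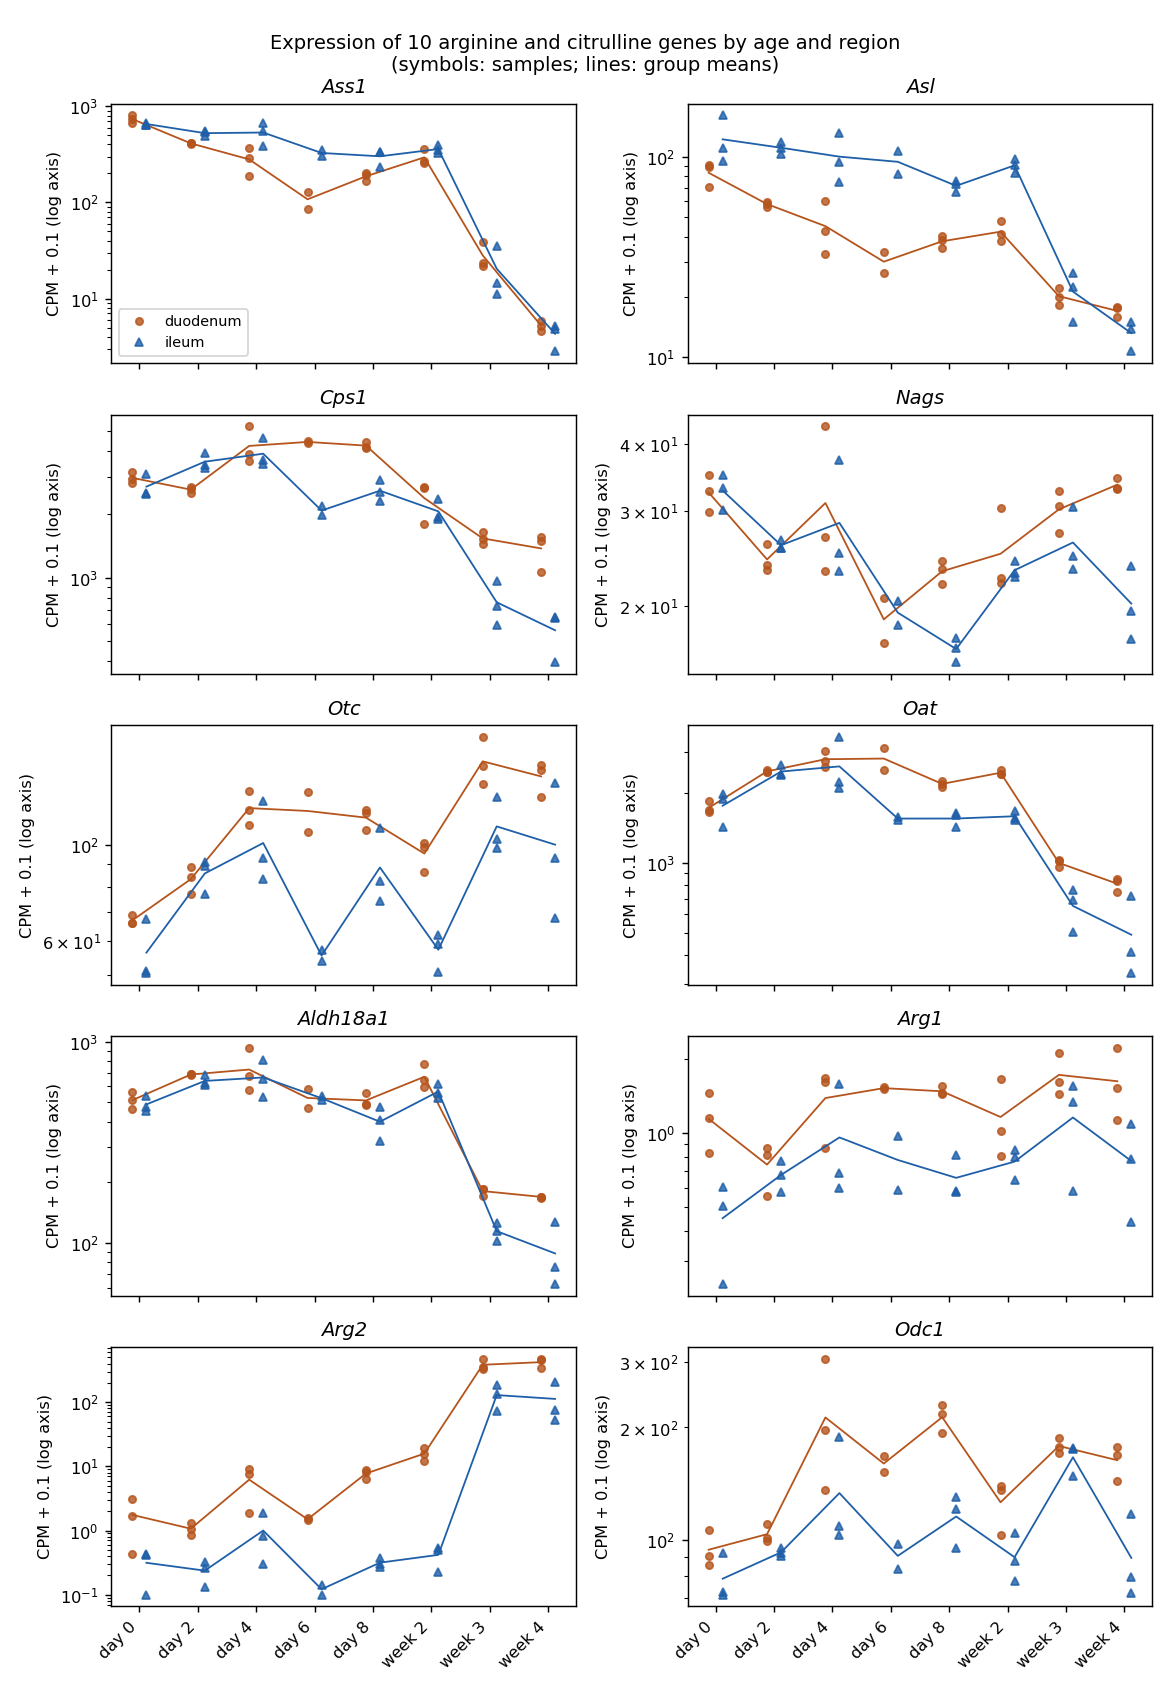
CPM plus 0.1 (log axis, ranges differ between panels) of the 10 genes at each age; circles are duodenum samples, triangles are ileum samples and lines join group means. Ass1 ends at 2.74 to 5.81 CPM at week 4, while Arg2 starts below 4 CPM in every day 0 sample and ends above 50 CPM in every week 4 sample.

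Ass1, argininosuccinate synthase, joins citrulline and aspartate and is encoded on the plus strand at chr2:31470207-31520672 (mm10). At day 0 the duodenum samples had 732, 802 and 668 CPM and the ileum samples 640, 677 and 643 CPM. At week 2 they had 357, 255 and 270 CPM in the duodenum and 351, 330 and 395 CPM in the ileum. Both regions thus carried abundant Ass1 RNA through the suckling period, at levels that overlapped at day 0 and at week 2. At week 3 the duodenum values were 38.8, 21.8 and 23.5 CPM and the ileum values 35.4, 14.5 and 11.1 CPM. By week 4 duodenal CPM had come to 5.81, 4.47 and 5.13, and ileal CPM to 2.74, 5.12 and 4.74. Every week 4 sample lay below every week 3 sample of its region, and every week 3 sample below every younger one.

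From day 0 to week 4 the log2 fold change of Ass1 was −7.16 ± 0.36 (SE; edgeR adjusted p 2.1e-18) in the duodenum, a 143-fold fall, and −7.27 ± 0.36 (1.76e-18) in the ileum, a 154-fold fall. The step from week 2 to week 3 was −3.39 ± 0.30 in the duodenum and −4.14 ± 0.31 in the ileum, and a further −2.45 ± 0.29 and −2.27 ± 0.30 followed to week 4. All 4 of these steps were called. The ileum steps moved most without ileum week 3 replicate 1, the highest of its group, to −4.81 and −1.59, and both were still called. Without it, week 3 Ass1 was also called lower in the ileum than in the duodenum (−1.13, adjusted p 0.00384; −0.46 and 0.279 with it).

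Before weaning the levels of Ass1 in the regions parted and then met again. In the duodenum it dropped to 86.1 and 129 CPM at day 6, stood at 200, 167 and 193 CPM at day 8, and then went to the week 2 values above, a step of 0.66 ± 0.27 that was not called (adjusted p 0.0979; DESeq2 gave 0.71 and 0.0386). In the ileum the day 6 samples had 305 and 348 CPM, and the day 8 samples 235, 335 and 334 CPM. Ileal Ass1 was 3.04-fold higher than duodenal at day 6 (log2 1.60 ± 0.34, adjusted p 0.00037) and also called higher at day 4, by 0.93 ± 0.27, and at day 8, by 0.69 ± 0.27. The day 6 call rests on 2 samples a region. With the pair left out put back under their labels the difference was 0.47 (0.758). That pair had Pdx1 and Fabp6 levels opposite to their labels, and with it calls over all genes at day 6 went from 7762 to 0. This setting therefore cannot test the day 6 call. The day 4 call was lost without duodenum day 4 replicate 2 (0.71, adjusted p 0.0871) or ileum day 4 replicate 2 (0.74, 0.0513). The day 8 call was lost without any 1 of duodenum day 8 replicates 1 (0.75, 0.0679), 2 (0.62, 0.122) and 3 (0.72, 0.0742) or ileum day 8 replicates 2 (0.61, 0.112) and 3. The difference between regions in Ass1 changed with age (region by age interaction, adjusted p 0.00463).

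Asl, argininosuccinate lyase, releases arginine in the last step of the pathway and lies on the minus strand at chr5:130011258-130029247. Duodenal Asl began at 90.5, 88.5 and 70.6 CPM on day 0, had reached 47.5, 37.8 and 41.3 CPM by week 2, and ended with 17.6, 17.4 and 15.7 CPM. Ileal Asl began at 161, 94.8 and 111 CPM, had 82.8, 91.2 and 97.8 CPM by week 2, and ended with 14.9, 13.7 and 10.6 CPM. Ileum samples were all above duodenum samples at each of the 6 ages from day 0 to week 2, overlapped them at week 3 and were all below them at week 4. Asl fell 4.92-fold from day 0 to week 4 in the duodenum (log2 −2.30 ± 0.21, edgeR adjusted p 1.48e-11) and 9.38-fold in the ileum (−3.23 ± 0.22, 5.42e-15). The step into week 3 was −1.08 ± 0.20 and −2.10 ± 0.21. The excess in the ileum was called at day 2, 4, 6 and 8 and at week 2, between 0.92 and 1.66 on the log2 scale, and not at day 0 (0.56, adjusted p 0.0904), week 3 (0.08, 0.832) or week 4 (−0.37, 0.168). At day 0 it became a call without ileum day 0 replicate 2 (0.72, 0.0359).

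Cps1, the mitochondrial carbamoyl phosphate synthetase, is encoded on the plus strand at chr1:67123026-67231259. Its day 0 levels were 2948, 3181 and 2832 CPM in the duodenum and 2494, 3106 and 2542 CPM in the ileum. Later, duodenal samples had 4491 and 4368 CPM at day 6 and 4411, 4187 and 4164 CPM at day 8. Ileal samples had 2192 and 1984 CPM at day 6 and 2555, 2918 and 2315 CPM at day 8, all below the duodenal ones. The gap at day 6 was −1.09 ± 0.24 (edgeR adjusted p 0.000534) and at day 8 −0.71 ± 0.19 (0.00366), both ileum minus duodenum on the log2 scale.

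After weaning Cps1 was lower in both regions. At week 4 the duodenum had 1502, 1068 and 1567 CPM and the ileum 647, 643 and 397 CPM, with no overlap. The change since day 0 was −1.12 ± 0.19 in the duodenum (edgeR adjusted p 1.25e-05) and −2.27 ± 0.20 in the ileum (6.21e-12), folds of 2.17 and 4.83. In the duodenum the step from day 8 to week 2 was −0.83 ± 0.19 and that from week 2 to week 3 was −0.64 ± 0.19, while in the ileum the week 2 to week 3 step was −1.44 ± 0.20. The first of these lost its call without duodenum week 2 replicate 1 (−0.66, adjusted p 0.0627). The duodenal weaning step lost its call without duodenum week 2 replicate 2 (−0.54, 0.0887) or 3 (−0.55, 0.0835), or without duodenum week 3 replicate 1 (−0.63, 0.0514) or 2 (−0.60, 0.0702). Region and age interacted for Cps1 (adjusted p 0.0001).

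Nags makes N-acetylglutamate, the activator of Cps1, and lies on the plus strand at chr11:102145513-102149477. Of the 9 members with an age effect it had the narrowest range, with group means from 16.5 to 33.5 CPM. Duodenal samples had 29.7, 32.5 and 34.9 CPM at day 0 and 32.9, 34.5 and 33 CPM at week 4, a log2 change of 0.05 ± 0.17 that was not called. Ileal samples went from 34.9, 30 and 33 CPM to 23.6, 19.4 and 17.2 CPM, a fall of 0.70 ± 0.17 on the log2 scale with edgeR adjusted p 0.00108. At week 4 ileal Nags was lower than duodenal by 0.74 ± 0.17 on the log2 scale (0.00194), and the groups did not overlap. Reads of the antisense gene Gm11586, whose median was 16.5 counts per sample, overlap Nags, and the strandedness of the counting is not given in the sources used here.

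Otc, ornithine transcarbamylase, makes citrulline and sits on the X chromosome, plus strand, at chrX:10252305-10321024. Unlike the genes around it in the pathway, Otc rose. In the newborn duodenum Otc had 65.8, 68.6 and 65.8 CPM. By week 2 it had 86.3, 101 and 98.4 CPM there, and one week later 138, 177 and 152 CPM. The ileum gave 50.4, 67.3 and 50.8 CPM in newborns, 50.6, 58.7 and 61.8 CPM at week 2, and then 98.2, 129 and 103 CPM. Every week 3 sample exceeded every week 2 sample of its region, and the step was 0.71 ± 0.18 (edgeR adjusted p 0.00356) in the duodenum and 0.95 ± 0.18 (7.41e-05) in the ileum. From day 0 to week 4 the rise was 1.11 ± 0.18 and 0.83 ± 0.18. Sex was not balanced over ages: Ddx3y, a Y-linked gene, was above 1 CPM in 4 of 6 samples at day 0, 2 of 6 at week 2, 4 of 6 at week 3 and 0 of 6 at week 4. It was above 1 CPM in 0 of 4 samples at day 6 and 0 of 6 at day 8, so day 8 against day 0 is unbalanced too. With an index of sex in the model all 4 of these Otc changes were still called.

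Aldh18a1, the bifunctional enzyme that takes glutamate to pyrroline-5-carboxylate, is on the minus strand at chr19:40550257-40588463. Oat, ornithine aminotransferase, converts pyrroline-5-carboxylate to ornithine and is on the minus strand at chr7:132557478-132576398. Duodenal Aldh18a1 went from 774, 594 and 643 CPM at week 2 to 186, 171 and 186 CPM one week on. In the ileum it went from 557, 524 and 618 CPM to 126, 115 and 102 CPM. Oat showed a like drop. Its duodenal values went from 2404, 2518 and 2398 CPM to 954, 1023 and 1015 CPM, and its ileal values from 1557, 1531 and 1665 CPM to 762, 690 and 501 CPM. The week 2 and week 3 samples did not overlap for either gene in either region.

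The weaning step of Aldh18a1 was −1.89 ± 0.19 (edgeR adjusted p 8.9e-10) in the duodenum and −2.31 ± 0.20 (5.79e-12) in the ileum. For Oat it was −1.29 ± 0.19 (2.63e-06) and −1.28 ± 0.19 (1.83e-06). Before that, neither gene was called between day 0 and day 8, with changes from −0.28 to 0.34 over both genes and regions. Ileal Aldh18a1 was called lower than duodenal at week 3 (−0.67 ± 0.19) and week 4 (−0.93 ± 0.19) and at no earlier age. The week 3 call was lost without ileum week 3 replicate 3 (−0.59, adjusted p 0.0861). Fgfr2 overlaps Oat on the same strand, with a median of 1372 counts, and estimated counts assign shared reads by a model.

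Per kilobase of the longest coding transcript, the order of levels in the duodenum at day 0 was Oat (800 CPM per kilobase), Cps1 (538), Ass1 (433), Aldh18a1 (145), Asl (34.5), Otc (22.3) and Nags (16). At week 4 it was Oat (377), Cps1 (248), Otc and Aldh18a1 (47.9 each), Nags (16.5), Asl (7) and Ass1 (3.03). In the ileum Ass1 went from 385 to 2.48 CPM per kilobase while Otc went from 18.7 to 33.3. In the duodenum Ass1 thus moved from the third place of these 7 genes to the last, and the enzymes that make citrulline kept transcripts at every age.

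Arg2, the mitochondrial arginase, lies on the plus strand at chr12:79130777-79156301 and was the member that rose most. Duodenal Arg2 started at 0.333, 1.59 and 3.04 CPM on day 0, was up to 8.55, 6.24 and 8.15 CPM on day 8, and had 19.6, 11.9 and 15.7 CPM at week 2. It then reached 349, 472 and 330 CPM in the week 3 mice, with 464, 343 and 458 CPM in the oldest ones. Between these ages it had 0.739 to 1.2 CPM on day 2, 1.77 to 9.06 CPM on day 4, and 1.46 and 1.34 CPM on day 6, the last within the day 0 range. Day 8 was 2.15 ± 0.58 log2 above day 0 (edgeR adjusted p 0.00327; 3.11 without duodenum day 0 replicate 3), and the step from day 8 to week 2 was not called (1.04 ± 0.53, 0.196).

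In the ileum no sample had over 46 counts of Arg2 up to week 2, and the highest level in that period was 1.77 CPM, in day 4 replicate 1. It had 0, 0.334 and 0.309 CPM at day 0 and 0.435, 0.127 and 0.392 CPM at week 2, from 16, 6 and 12 counts. The week 3 ileum samples had 71.7, 184 and 132 CPM, while those of week 4 gave 210, 53.5 and 74.4 CPM. The week 3 values came from 1794, 3812 and 2732 counts, and no sample of the later group overlapped the earlier ones.

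The step from week 2 to week 3 was 4.61 ± 0.59 on the log2 scale (24.4-fold, edgeR adjusted p 3.18e-07) in the duodenum and 8.72 ± 0.78 (421-fold, 1.22e-10) in the ileum. The 2 steps differed by 4.11 ± 0.89 (region by weaning interaction, adjusted p 0.0111), and Arg2 was 1 of 10 members called there, against 1.38% of all genes. Without ileum week 2 replicate 2, which had 6 counts, the difference was 3.66 and was not called (0.0705). Without ileum week 3 replicate 1, 3 members were called. From day 0 to week 4 Arg2 rose by 7.93 ± 0.70 in the duodenum and 8.96 ± 0.81 in the ileum. These became 8.88 without duodenum day 0 replicate 3 and 8.10 without ileum week 4 replicate 1, and were called in both cases. Despite the larger step, ileal Arg2 was still lower than duodenal at week 4, by 1.91 ± 0.52 on the log2 scale (0.00815); this call was lost without ileum week 4 replicate 3 (−1.70, 0.0564), and the value was −2.74 without replicate 1. Vti1b, with a median of 1312 counts, and Gm48780 overlap Arg2 on the opposite strand.

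Arg1, the cytosolic arginase known from liver, is on the minus strand at chr10:24915221-24927484 and had at most 2.12 CPM in any sample used. Duodenal samples ran from 0.729 to 1.35 CPM at day 0 and from 1.03 to 2.12 CPM at week 4, and ileal ones from 0.143 to 0.501 CPM and from 0.334 to 0.991 CPM. Day 0 and week 4 overlapped in each region. Per kilobase, Arg2 made up 62.1% of the summed mean arginase level at day 0 in the duodenum, 93.9% at week 2 and 99.7% at week 4. In the ileum it made up 38.8% at day 0, 33.1% at week 2 and 99.2% at week 3. Before week 3 the shares did not climb steadily. The duodenal share was 50.4% at day 6, and the ileal share 51.9% at day 4 and 3.21% at day 6. Up to week 2 the ileal shares rest on low levels of both genes. At day 0 the ratio of Arg2 to Arg1 ran from 0 to 2.24 between ileum samples.

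Odc1, ornithine decarboxylase, is on the plus strand at chr12:17544794-17551505. In the duodenum it went from 90.7, 85.3 and 106 CPM at day 0 to 229, 217 and 193 CPM at day 8, was at 103, 136 and 139 CPM at week 2, and at 169, 144 and 177 CPM at week 4. The rise to day 8 was 1.18 ± 0.21 (edgeR adjusted p 2.01e-05) and the fall to week 2 was −0.75 ± 0.21 (0.0124). The fall was not called without duodenum day 8 replicate 1 (−0.70, 0.0526) or duodenum week 2 replicate 1 (−0.63, 0.11). Beside this, the summed CPM of 5 genes of dividing cells (Mki67, Top2a, Ccnb1, Cdk1 and Pcna) was 305 to 370 in the duodenum at day 0, 1698 to 1815 at day 8 and 594 to 1020 at week 2. Their part in the Odc1 result was not tested.

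Ileal Odc1 had its highest group mean at week 3. It moved from 77.6, 87.7 and 104 CPM (week 2) up to 175, 176 and 148 CPM and back to 117, 79.2 and 71.9 CPM (week 4). The steps were 0.89 ± 0.21 (edgeR adjusted p 0.00115) and −0.89 ± 0.21 (0.00211), and week 3 overlapped neither neighbour. The sum of the dividing-cell genes in the ileum was 374 to 387 at week 2, 448 to 712 at week 3 and 323 to 450 at week 4.

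Of the 10 genes, 7 were called between week 2 and week 3 in the duodenum, 2 up (Arg2, Otc) and 5 down, where 7.7% of all genes rose and 10.6% fell. In ileum samples 8 passed, 3 up (Arg2, Otc, Odc1) and 5 down, against 12.9% and 13.9%. The 5 that fell, in each region, were Ass1, Asl, Cps1, Oat and Aldh18a1. In the earlier steps, day 8 against day 0 gave 7 called members in the duodenum (41.2% of all genes) and 4 in the ileum (19.3%). With 1 sample left out the duodenal count was 5 or 6 and the ileal one 3 to 5. Duodenal Cps1 (0.51) lost its call without any 1 sample of either age (0.46 to 0.55, adjusted p 0.0542 to 0.103). It also lost it with an index of sex in the model (0.48, edgeR adjusted p 0.0533). Duodenal Nags (−0.49) lost its call without day 0 replicate 3 (−0.44, 0.0663) or day 8 replicate 2 (−0.45, 0.0695). Ileal Asl lost its call without day 0 replicate 1 (−0.53, 0.0824), and ileal Otc without day 8 replicate 1 (0.49, 0.0989). Week 2 against day 8 gave 2, Cps1 and Odc1 (15.7%), and 1, Otc (6.64%). That Otc step, −0.63 ± 0.18, was not called without ileum day 8 replicate 1 (−0.48, adjusted p 0.288) or any 1 of ileum week 2 replicates 1 (−0.55, 0.137), 2 (−0.65, 0.0687) and 3 (−0.69, 0.0636). Week 4 against week 3 gave 1 in the duodenum, Ass1 (12.7%), and 3 in the ileum, Ass1, Asl and Odc1 (16.1%). The Asl step there, −0.70 ± 0.21, was not called without ileum week 3 replicate 1 (−0.51, adjusted p 0.165) or ileum week 4 replicate 3 (−0.59, 0.093). The ileal count was 5 without ileum week 3 replicate 3 or ileum week 4 replicate 1.

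**Figure D2:**
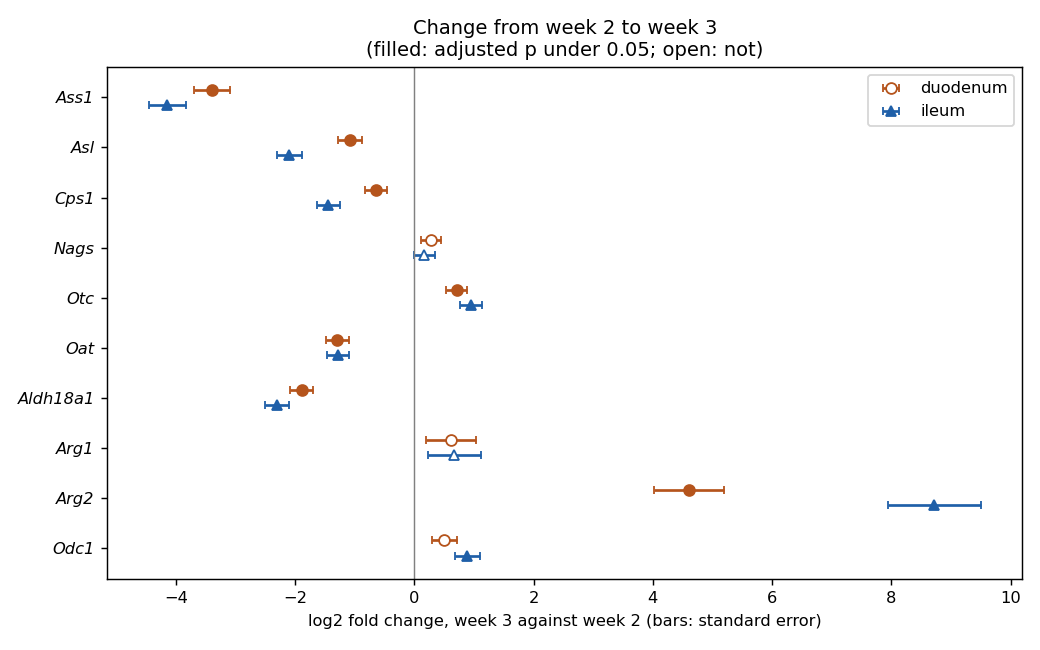
Log2 fold change of each of the 10 genes from week 2 to week 3 in duodenum (circles) and ileum (triangles), with standard errors as bars; filled symbols have an edgeR adjusted p under 0.05. Ass1 lies farthest to the left in both regions and Arg2 farthest to the right, at 4.61 and 8.72.

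The whole set also differed between regions, since all 10 members were called for ileum against duodenum averaged over the 8 ages, where 62.1% of all genes were. Asl (0.76 ± 0.07) and Ass1 (0.37 ± 0.10), which turn citrulline into arginine, were higher in the ileum. The other 8 were higher in the duodenum, from Nags (−0.19 ± 0.06) to Arg2 (−3.63 ± 0.30). With all 48 samples under their labels the Ass1 mean was 0.23 and not called (edgeR adjusted p 0.139), the Arg2 mean was −2.94, and the day 6 difference of Asl was 0.55 and not called. That setting includes the day 6 pair at odds with its labels, and calls over all genes at day 6 were 0 under it. By age, the number of members called was 2 on day 0 (6.1% of all genes), 1 on day 2 (8.01%) and 4 on day 4 (26.6%). It was 7 for the day 6 samples (35.3%) and 8 for those of day 8 (39.6%). In the weekly samples it was 4 (22.4%), then 4 (14.2%), then 8 (28.4%). The share of all genes called was highest at day 8. The genes called at day 0 were Arg1 and Arg2, and Asl was the one at day 2. Week 2 and week 3 had Arg2 and Oat in common, with Asl and Otc called at week 2 and Cps1 and Aldh18a1 at week 3. The Oat call at week 2 was lost without duodenum week 2 replicate 2 (−0.60, edgeR adjusted p 0.0528) or ileum week 2 replicate 1 (−0.61, 0.0555) or 2 (−0.60, 0.0618). At week 3 it was lost without duodenum week 3 replicate 2 (−0.62, 0.068) or 3 (−0.60, 0.0724) or ileum week 3 replicate 3 (−0.46, 0.189). At week 4 the 8 called genes were all lower in the ileum, and Ass1 and Asl were the pair not called. Of these calls, that of Otc was lost without duodenum week 4 replicate 1 (−0.49, edgeR adjusted p 0.0803) or 3 (−0.51, 0.0723), or without ileum week 4 replicate 2 (−0.32, 0.192) or 3 (−0.50, 0.0989). The call of Oat was lost without ileum week 4 replicate 2 (−0.53, 0.0511). That of Arg1 was lost without any 1 of duodenum week 4 replicates 1 (−1.22, 0.076) and 3 (−0.88, 0.194) and ileum week 4 replicates 2 (−1.19, 0.0956) and 3 (−0.90, 0.215).

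Several of these counts depended on 1 sample, though calls over all genes are not given for those fits. At day 0 no member was called without duodenum day 0 replicate 3, ileum day 0 replicate 1 or ileum day 0 replicate 3, and 1 was without duodenum day 0 replicate 2. At day 8 the count was 5 without duodenum day 8 replicate 1 or 3 or ileum day 8 replicate 2, and 4 without ileum day 8 replicate 3. At week 3 it was 2 without duodenum week 3 replicate 2 or 3 and 1 without ileum week 3 replicate 3. At week 4 it was 5 without ileum week 4 replicate 2 or 3.

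Region and age interacted for 5 members, Asl, Cps1, Ass1, Arg2 and Otc, with 22.4% of all genes called. Without duodenum day 4 replicate 3 this count was 9, and without ileum day 4 replicate 2 it was 8. Calls over all genes are not given for these fits, and without any day 4 samples they went from 4930 to 9448. The plot of regional differences shows the forms these took. For Ass1 and Asl the ileal excess was greatest at day 6 and was not called at week 3 or week 4. For Cps1 the ileum was called lower at day 6, day 8, week 3 and week 4. For Arg2 the ileal deficit was over 5 log2 units at day 6, day 8 and week 2 and under 2 at week 3 and week 4. At day 6 Arg2 stood at −5.97 ± 1.73, from 1 and 0 counts in the 2 ileum samples. Its day 0 gap of −2.93 ± 0.85 was −1.95 without duodenum day 0 replicate 3 (edgeR adjusted p 0.365), and its week 3 gap of −1.57 ± 0.52 was −1.28 without ileum week 3 replicate 1 (0.136), neither then called.

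**Figure D3:**
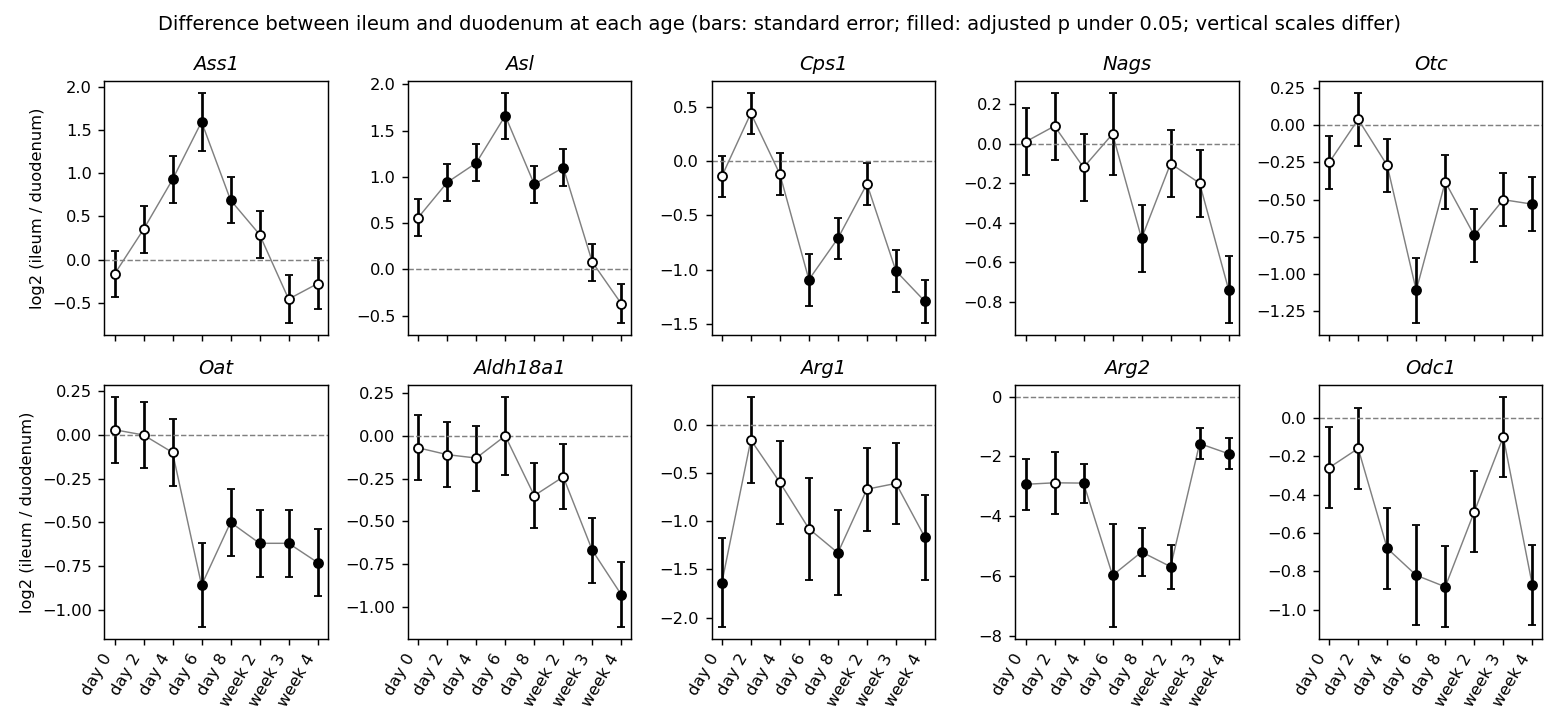
Log2 of ileum over duodenum at each age for the 10 genes, with standard errors as bars and filled symbols for edgeR adjusted p under 0.05; vertical ranges differ between panels and the dashed line is equality. Ass1 and Asl peak at day 6 with 1.60 and 1.66, and Cps1 ends at −1.29 at week 4.

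Across the 16 group means of log2 CPM, the members formed patterns that did not all follow the pathway's order. Ass1 and Asl had a Pearson r of 0.92, Ass1 and Aldh18a1 0.91, and Oat and Aldh18a1 0.96. Cps1 was closer to Oat (0.95) than to Ass1 (0.79). Otc was opposite to Asl (−0.75) and closest to Odc1 (0.85). Arg2 had its lowest r with Asl (−0.92). These r values describe 16 groups that share libraries within each group.

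The same r was computed against 12347 named genes outside the set, at a mean log2 CPM of 1 or more. Those nearest to Ass1 were Acot3 (r 0.989), a peroxisomal acyl-CoA thioesterase, Gm13053 (0.988) and F10 (0.982), which encodes coagulation factor X. F10, for example, went from 95.1 CPM at day 0 to 3.23 CPM at week 4 in the duodenum. These are group means of log2 CPM, with a prior count of 2, turned back into CPM. Nearest to Cps1 were Apip (0.972), an enzyme of methionine salvage, Shtn1 (0.968) and Ccdc115 (0.962). Nearest to Arg2 were Ces2c (0.980), a carboxylesterase, Adh6a (0.974), an alcohol dehydrogenase, and Khk (0.970), the first enzyme of fructose use. In the duodenum, on the same measure, Khk went from 68.1 CPM at week 2 to 208 CPM at week 4, and Ces2c from 28.8 to 644 CPM.

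Neighbouring reactions were followed in 4 lists. Of 12 genes of glutamine, glutamate and proline metabolism, 5 rose and 4 fell in the duodenum from day 0 to week 4, and 5 rose and 5 fell in the ileum. As above, 20.4% of all genes rose and 20.1% fell in the duodenum, and 21.5% and 20.4% in the ileum. Their median log2 changes were 0.48 and 0.49, beside −0.02 and 0.08 over all genes tested. Aldh4a1, which takes pyrroline-5-carboxylate back to glutamate, the reverse of the Aldh18a1 reaction, had 0.986 to 1.84 CPM at week 2 and 120 to 178 CPM at week 4 in the duodenum. In the ileum it had 1.28 to 1.95 CPM and 55.6 to 136 CPM. Its rise from week 2 to week 3 was 5.31 ± 0.35 in the duodenum (edgeR adjusted p 2.68e-14) and 3.51 ± 0.33 in the ileum (6.79e-11). Prodh2, which oxidises hydroxyproline, fell from day 0 to week 4, with log2 changes of −2.56 ± 0.35 and −3.36 ± 0.40. Gls2, a glutaminase, rose by 3.22 ± 0.49 and 2.31 ± 0.51, at levels of at most 3.31 CPM in these groups.

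In the list of nitric oxide and creatine genes, 6 of 7 fell in the duodenum and 4 of 7 in the ileum from day 0 to week 4, against 20.1% and 20.4% of all genes. Nos2 rose in both, where 20.4% and 21.5% of all genes rose. The medians of the list were −2.68 and −2.07, beside the same −0.02 and 0.08 over all genes. Gatm, which uses arginine in the first step of creatine synthesis, had 112 to 208 CPM at day 0 in the duodenum and 1.25 to 1.62 CPM at week 4, a log2 change of −6.86 ± 0.42 (edgeR adjusted p 1.21e-15). The ileal change was −5.63 ± 0.40 (3.65e-14). Nos2, the inducible nitric oxide synthase, had 0.428 to 0.668 CPM at day 0 and 194, 357 and 139 CPM at week 4 in the ileum, a rise of 8.83 ± 1.00 (1.08e-08). In the duodenum its week 4 values were 0.574, 40.5 and 1.8 CPM, so that the rise of 5.79 ± 0.97 rested mainly on week 4 replicate 2 and was 2.14 without it (0.00438).

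Nos3, the endothelial nitric oxide synthase, was also called lower at week 4 in both regions, with 2.47 to 4.83 CPM in newborn duodenum and at most 0.0556 CPM in the week 4 samples. Newborn ileum had 1.33 to 5.49 CPM, and week 4 ileum 0.233 to 0.683 CPM. The summed CPM of 5 endothelial markers (Pecam1, Cdh5, Kdr, Tie1 and Egfl7), none of them at 0 throughout a group, went from 98.8 to 187 at day 0 to 9.53 to 10.1 at week 4 in the duodenum. In the ileum it went from 48.1 to 206 to 13.1 to 43. All 5 markers fell in the duodenum and 4 in the ileum, where 20.1% and 20.4% of all genes fell. The part of endothelial content in the Nos3 result was not tested.

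Of 11 polyamine genes, 2 rose and 4 fell in the duodenum and 3 rose and 5 fell in the ileum from day 0 to week 4, with medians of 0.16 and −0.25 (all genes −0.02 and 0.08). Over all genes, 20.4% rose and 20.1% fell in the duodenum, and 21.5% and 20.4% in the ileum. The shares of the list that rose, 2 of 11 and 3 of 11, were near those of all genes. Azin1, the antizyme inhibitor that spares ornithine decarboxylase from breakdown, rose by 1.04 ± 0.21 in the duodenum (edgeR adjusted p 9.07e-05) and 1.91 ± 0.21 in the ileum (1.46e-09). Azin2 fell (−1.24 ± 0.33 and −2.03 ± 0.36), at group means of at most 1.94 CPM at day 0. Agmat, named for agmatinase, also fell (−1.09 ± 0.24 and −2.78 ± 0.27), in the ileum from 19.3 to 26.1 CPM down to 2.81 to 3.41 CPM.

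Among 10 tested of 11 transporter genes, 3 rose and 2 fell in the duodenum and 2 rose and 2 fell in the ileum, with medians of 0.26 and 0.09. These counts were near the shares of all genes, 20.4% up and 20.1% down in the duodenum and 21.5% and 20.4% in the ileum. Slc25a13, the mitochondrial aspartate-glutamate carrier whose product supplies aspartate to the Ass1 reaction, fell in both regions, with log2 changes of −0.71 ± 0.14 (edgeR adjusted p 4.71e-05) and −1.55 ± 0.14 (8.91e-12). Slc38a3, a glutamine transporter, fell too (−4.31 ± 0.55 and −3.87 ± 0.49), in the ileum from 14.7 to 27.5 CPM at day 0 down to 1.17 to 1.8 CPM. The duodenal value was −3.55 without duodenum day 0 replicate 1 and −5.01 without duodenum week 4 replicate 2. Slc7a2, a transporter of cationic amino acids such as arginine, rose in the duodenum by 1.26 ± 0.32 (0.00153) and was not called in the ileum (0.40, 0.334). Between week 2 and week 3, glutamine and proline genes gave 4 up and 1 down in the duodenum and 4 up and 2 down in the ileum. Polyamine genes gave 1 up and 2 down, then 2 and 3. Nitric oxide and creatine genes gave 1 up and 2 down, then 2 and 2, and transporters 1 up and 2 down, then 2 and 2. Over all genes this step gave 7.7% up and 10.6% down in the duodenum and 12.9% and 13.9% in the ileum.

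**Figure D4:**
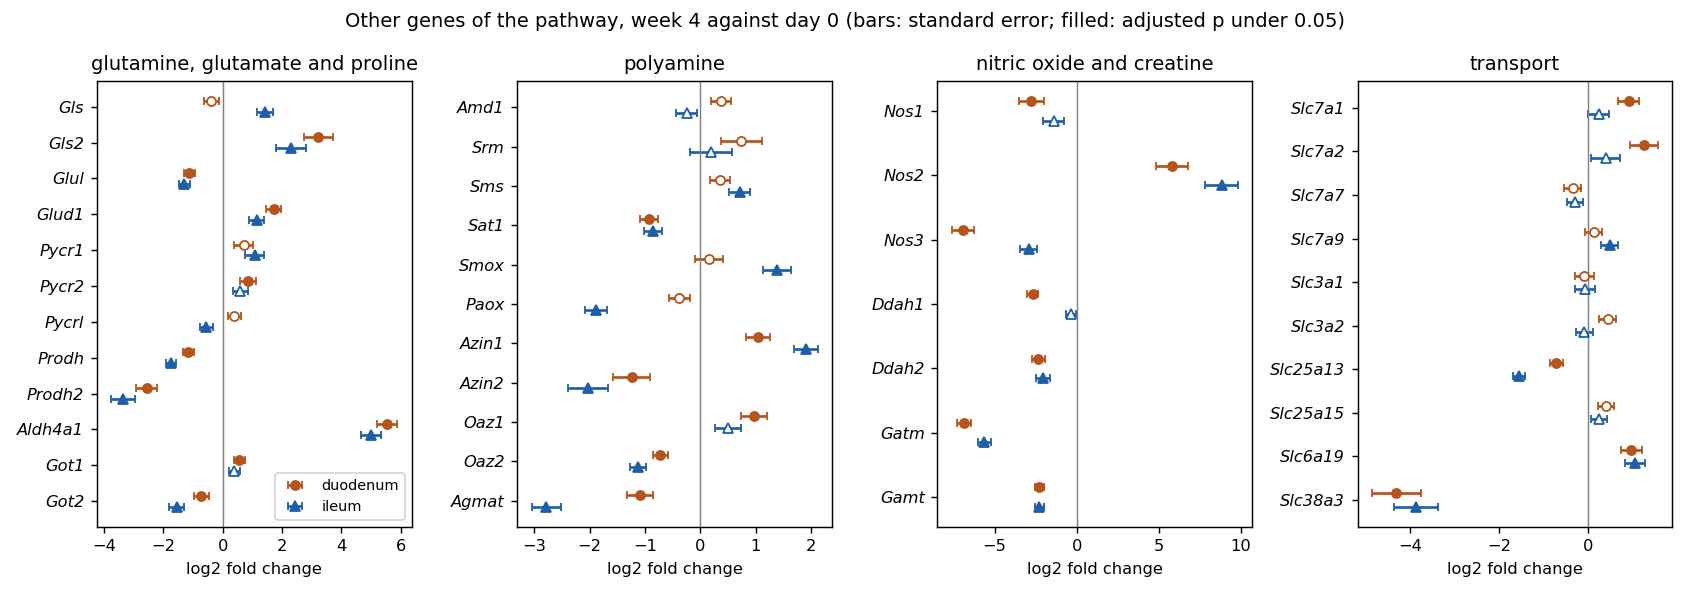
Log2 fold change from day 0 to week 4 of the tested genes in the 4 pathway lists, for duodenum (circles) and ileum (triangles), with standard errors as bars and filled symbols for edgeR adjusted p under 0.05; horizontal ranges differ between panels. Aldh4a1 rises by 5.55 and 4.99, and Gatm falls to −6.86 and −5.63.

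Markers of cell types also changed with age. Beside the marker counts below, 20.4% of all genes rose and 20.1% fell from day 0 to week 4 in the duodenum. In the ileum these shares were 21.5% and 20.4%. From week 2 to week 3 they were 7.7% and 10.6% in the duodenum and 12.9% and 13.9% in the ileum. The summed CPM of 7 epithelial markers (Epcam, Cdh1, Vil1, Krt8, Krt20, Cldn7 and Elf3) was 3633 to 3867 in the duodenum at day 0, 4388 to 4827 at week 2, 6240 to 7249 at week 3 and 8133 to 11781 at week 4. In the ileum it was 3347 to 4134, 4157 to 4534, 8935 to 11842 and 7363 to 11723. From week 2 to week 3, 3 of the 7 were called as rising and 1 as falling in the duodenum, and 3 as rising and 0 as falling in the ileum. From day 0 to week 4 all 7 rose in both regions, while Ass1, Asl, Cps1, Oat and Aldh18a1 fell and Arg2 and Otc rose. The part of epithelial content in these changes was not tested. Of 6 macrophage markers, 5 fell in duodenum samples and 2 in ileum samples. Their summed CPM went from 109 to 137 at day 0 down to 14.6 to 25.1 at week 4 in the duodenum, and from 88.2 to 109 down to 20 to 23.4 in the ileum. Of 4 tested of 6 neutrophil markers, 4 fell in the duodenum and 2 in the ileum, and after day 0 their sum was at most 4.45 CPM.

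Hepatocyte markers, relevant because liver expresses Ass1, Cps1, Otc and Arg1, differed among themselves. Of 6 tested, 2 rose and 3 fell in each region from day 0 to week 4, beside the shares of all genes given above. Albumin (Alb) was at most 1.22 CPM in any group and Ahsg at most 0.333. Fgb, a fibrinogen chain gene, was at 32.2 to 47.3 CPM in the ileum at day 0, 5.52 to 10.3 CPM at week 2 and 0 to 0.08 CPM at week 3. In the duodenum Fgb was at 3.92 to 12.4 CPM at day 0 and listed at 0 in every week 2 sample, while Ass1 had 255 to 357 CPM there. Tat, tyrosine aminotransferase, was at 4.78 to 28.9 CPM in the ileum at week 4 and at most 0.334 CPM there at day 0. The sum of the 7 markers used was at most 69.4 CPM, in the ileum at day 0. It was 9.18 to 15 CPM in the ileum at week 2, 3.2 to 3.62 CPM at week 3 and 7.17 to 31 CPM at week 4. Of 8 pancreatic acinar markers, 1 rose and 1 fell in the duodenum between day 0 and week 4, and the sum was 15.4 to 555 CPM in the duodenum at day 2. The 4 smooth muscle markers (Acta2, Myh11, Des and Actg2) summed to between 3.41 and 156 CPM over all samples. The 7 epithelial markers summed to between 3053 and 11842 CPM. How much of the muscle layer these pieces, described as whole-thickness, brought into the RNA was not tested. Beyond the values given, the part of hepatocytes, acinar cells and smooth muscle in the results was not tested.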

How the data were processed

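Total RNA of whole-thickness intestine was sequenced. The submitters' processing notes name STAR 2.6.1d, Salmon 0.14.2, DESeq2 1.30.1 and mm10, without their roles. The authors deposited estimated counts per gene as whole numbers, and for 40 samples a normalized signal, which in each column was a constant multiple of the counts and was used only to read gene symbols (51106 of 54532 genes). The strandedness of counting is not given in the sources used here.

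The counts of 46 samples were fitted with edgeR 4.0.16 in R 4.3.3: TMM scaling, filterByExpr over the 16 groups, 1 mean per group, the quasi-likelihood test and Benjamini-Hochberg adjustment over 21986 genes, called under 0.05. All comparisons came from this 1 fit, so those with a group in common share its samples, as do day 8 and week 4 against day 0. The standard error is the size of the log2 fold change divided by the root of F. Alternatives were DESeq2's size factors (RLE), no low-count filter, a replicate block, all 48 samples, no day 4 samples, an index of sex, DESeq2 1.42.0, and each sample left out in turn. Levels per kilobase used the longest coding transcript in GENCODE M21 (GRCm38).

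The 10 genes and all lists were chosen with earlier results of these data known. In each pathway list the 3 called genes with the largest change from day 0 to week 4 in either region are named, and beside Ass1, Cps1 and Arg2 the 3 genes with the highest r. One marker gene of the lists is not reported here and was left out of its list's sum.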

Additional observations from a re-analysis of the deposited data

Results flagged for a closer look

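For 5 members the difference between ileum and duodenum changed with age by the interaction test in edgeR, with adjusted p-values of 0.0001 for Cps1, 0.000111 for Asl, 0.00463 for Ass1, 0.00914 for Arg2 and 0.0481 for Otc. The forms of these differences are those given by age above.

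Arg2 was also the member whose change between week 2 and week 3 differed between the regions, by 4.11 on the log2 scale with an edgeR adjusted p of 0.0111.

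Arg2 also had reads in both samples left out at day 6. The sample labelled duodenum number 3 had 0.143 CPM from 5 counts, and the one labelled ileum number 3 had 2.08 CPM from 49 counts. The day 6 duodenum samples used had 1.46 and 1.34 CPM and the ileum samples used had 0.0434 and 0 CPM.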

How the results depend on the processing

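Of the counts of called members, 140 stayed within 1.5 times under other settings and 20 did not, and with 1 sample left out 231 did and 25 did not. The single-gene results followed were the members' called differences and all their changes from day 0 to week 4 and week 2 to week 3. Of these 698 and 952 kept their direction and side of the threshold, 45 and 80 lost their call, and 2 gained one under other settings. Other differences not called at first are not in this tally, and some of them gained a call, as for Asl at day 0. A sign changed in 2, Nags in the duodenum from day 0 to week 4 (−0.01 without duodenum day 0 replicate 1) and Odc1 in the ileum (−0.10 without ileum week 4 replicate 1), neither called. With 1 sample left out these ran up to 0.08 and 0.32.

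With all 48 samples the members called were 2 from day 0 to day 8 in the ileum, 1 (duodenum) and 0 (ileum) from day 8 to week 2, 1 for region on day 0, 0 on days 2 and 6, 2 on day 4 and 2 in week 3, 1 for region by age and 0 for region by weaning. Over all genes the calls for region fell too, to 539 on day 0, 969 on day 2, 3708 on day 4, 0 on day 6 and 1331 in week 3. They fell to 894 for region by age, 104 for region by weaning and 3103 from day 0 to day 8 in the ileum. From day 8 to week 2 they fell to 1405 in the duodenum and 392 in the ileum. Without the low-count filter the members called were 0 from day 8 to week 2 in the ileum, 1 for region at day 0, 5 at day 8 and 2 for region by weaning. Calls over all genes there went from 1460 to 886, 1342 to 894, 8710 to 7295 and 303 to 208. Without day 4 samples the members called were 3 from day 8 to week 2 in the ileum, 9 for region by age and 3 for region by weaning. Calls over all genes there went from 1460 to 3005, 4930 to 9448 and 303 to 664. DESeq2 gave 2 members for region at day 2 and 3 for region by weaning, while calls over all genes went from 1762 to 2198 and from 303 to 577. The cause was not tested.

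With 1 sample left out, the counts ran from 0 to 2 and from 0 to 1 from day 8 to week 2, duodenum before ileum, and from 2 to 5 for week 4 against week 3 in the ileum. For region they ran from 0 to 2 at day 0, 4 to 7 at day 8, 1 to 5 at week 3 and 5 to 8 at week 4. They ran from 4 to 9 for region by age and from 0 to 3 for region by weaning. Calls over all genes with 1 sample left out are not given, so shifts of the members cannot be told from shifts of all genes.

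Deviations of log2 CPM from the group mean were correlated between duodenum and ileum samples of the same age. Same-numbered duodenum and ileum samples had a mean r of 0.16 over 23 pairs (from −0.36 to 0.67, 16 over 0.1), against −0.08 over 44 pairs of different number (10 over 0.1). Such deviations cancel out within a group, so the means are tied to each other and the second is no independent reference. The labels state no pairing, so numbers were not taken as pairs. These r values do not settle whether same-numbered samples came from one mouse. Apart from the replicate block, the p-values between regions make no allowance for it. The replicate block raised the count for region by weaning to 2, while calls over all genes went from 303 to 341. Under it Arg1 was no longer called for region at week 4 (−1.13, adjusted p 0.0678). Depth limits Arg2 in the ileum before week 3, which rests on at most 46 counts per sample.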

Other observations

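The samples left out at day 6 differed from each other in most of the 10 genes. The one labelled duodenum number 3 had 328 CPM of Ass1, 88.2 of Asl, 2148 of Cps1, 54.4 of Otc, 1608 of Oat and 76.1 of Odc1. The one labelled ileum number 3 had 99.6 CPM of Ass1, 27.2 of Asl, 4329 of Cps1, 115 of Otc, 2579 of Oat and 138 of Odc1. Nags (18 and 16.4 CPM), Aldh18a1 (515 and 456) and Arg1 (0.947 and 0.934) were closer. They enter only the alternative with all 48 samples.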
